A study of Capra hircus with 20 samples.

Results

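The miRNAs described here are those at the proximal end of the DLK1-DIO3 imprinted region, together with miR-345. They were chosen by name, with earlier results of these data known. Every row was taken, of either arm, named miR-493, miR-665, miR-431, miR-433, miR-127, miR-432, miR-136, miR-337, miR-370 or miR-345. Of these 10 names, 7 had rows in the table used here, and miR-431, miR-337 and miR-370 had none. The 7 names gave 12 of the 683 miRNAs of the table, listed there with the goat prefix chi-. All 12 passed the filter used for testing, 1 RPM (1 read in 1e+06 miRNA reads of the library) in at least 5 of the 20 libraries, as did 414 of the 683.

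The samples were hypothalamic tissue, taken from goats of the early-maturing Jining grey breed at days 1, 60, 120 and 180 after birth. Each age had 5 biological replicates, kept under the same conditions with free access to food and water. The groups differ only in age as far as the labels say, and the labels give no treatment, genotype, sex or batch. Small RNA was sequenced from 3 μg of total RNA per sample. The tissue was not separated into cell types, so fewer cells of a type and less RNA per cell cannot be told apart in any difference below.

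The DLK1-DIO3 region of placental mammals is imprinted: DLK1, RTL1 and DIO3 are expressed from the paternal allele, and a series of non-coding RNAs, among them many miRNAs, from the maternal allele. The miRNAs lie in a proximal group and in a longer distal run, and in the mouse they are abundant in brain. Several of the proximal hairpins lie antisense to RTL1, and in the mouse miR-127 represses Rtl1. A hairpin can yield a miRNA from each arm, named 5p and 3p, of which one is usually retained as the guide strand and the other is scarcer.

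In the RefSeq annotation of the goat genome, assembly ARS1.2, all 7 genes lie on chromosome 21. MIR493 and MIR665 follow DLK1, and MIR433, MIR127, MIR432 and MIR136 lie within the span of RTL1. The distal run from MIR379 to MIR656 comes next, and DIO3 after it. MIR345 does not lie between DLK1 and DIO3: it is on the far side of BEGAIN, outside that interval. The levels of its arms are given in a paragraph of their own, but sums, counts and medians over the 12 miRNAs include them. No mature sequences or genome were used here, so the sequences are not printed.

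The libraries held between 4017937 and 8324880 miRNA reads, with 3 reads, the floor used here, equal to between 0.360 and 0.747 RPM. Replicate 2 of day 1 stood apart: it was the shallowest, and over all miRNAs it had a median Spearman correlation of 0.891 with the rest, where the next lowest library had 0.916. Of 8 neuronal miRNA rows (such as miR-124a, miR-128 and miR-218), 8 were above 0 in every library and 0 of 8 passed the test between any 2 ages. Their summed level ranged over 7944 to 52197 RPM on day 1, 16356 to 49112 RPM on day 60, 17606 to 74249 RPM on day 120 and 16665 to 30224 RPM on day 180. The summed level of 7 astrocyte rows (miR-29 and miR-26a) was 29050 to 45512 RPM on day 1, 25043 to 66768 RPM on day 60, 49172 to 70371 RPM on day 120 and 43242 to 76132 RPM on day 180, with 0 of 7 past the test. Of 11 rows that mark multiciliated cells and choroid plexus, 7 were tested, and 1 of 7, chi-miR-449a-5p, was lower at each later age than on day 1, with log2 fold changes of -2.70, -2.61 and -3.16 at days 60, 120 and 180 (limma adjusted p 0.0112, 0.0150 and 0.00145). Of these 7, 6 were below 0 at each later age, and the summed level of the 11 rows was 2835 to 8527 RPM at day 1, 2388 to 11306 RPM at day 60, 1514 to 7568 RPM at day 120 and 2870 to 6490 RPM at day 180. Of 3 tested liver rows 1 passed, chi-miR-122, which was higher at day 60 than on day 1 (log2 fold change 3.78, limma adjusted p = 0.0110). Of 6 neuroendocrine and pituitary rows (such as miR-7-5p and miR-200b), 5 were tested and 0 of 5 passed. Their summed level was 11558 to 117773 RPM on day 1 and 39340 to 229575 RPM on day 60. It was 21272 to 74713 RPM on day 120 and 9645 to 304802 RPM on day 180. The part of cell makeup in the results below was not tested.

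The 12 miRNAs together made up 1.05% ± 0.668 of the miRNA reads at day 1, 1.34% ± 0.407 at day 60, 1.03% ± 0.283 at day 120 and 1.06% ± 0.377 at day 180 (SD, n = 5 each). Within the group the levels spanned more than 3 orders of magnitude. chi-miR-127-3p, the most abundant, averaged 8672 RPM over the 20 libraries, rank 23 among the means of the 683 miRNAs, and supplied 77.5% of the group. chi-miR-432-5p at 1254 RPM supplied 11.2% and chi-miR-433 at 851 RPM supplied 7.60%. The next were chi-miR-136-3p at 186 RPM, chi-miR-493-5p at 107 RPM, chi-miR-127-5p at 60.3 RPM, chi-miR-493-3p at 37.4 RPM and chi-miR-345-3p at 12.3 RPM. The remaining 4 were scarce: chi-miR-136-5p at 6.09 RPM, chi-miR-432-3p at 4.26 RPM, chi-miR-345-5p at 3.38 RPM and chi-miR-665 at 1.94 RPM. The share of miR-127-3p in the group was 69.3% ± 12.7 at day 1, 74.1% ± 6.71 at day 60, 83.8% ± 4.43 at day 120 and 85.2% ± 4.33 at day 180 (SD, n = 5 each).

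**Figure D1:**
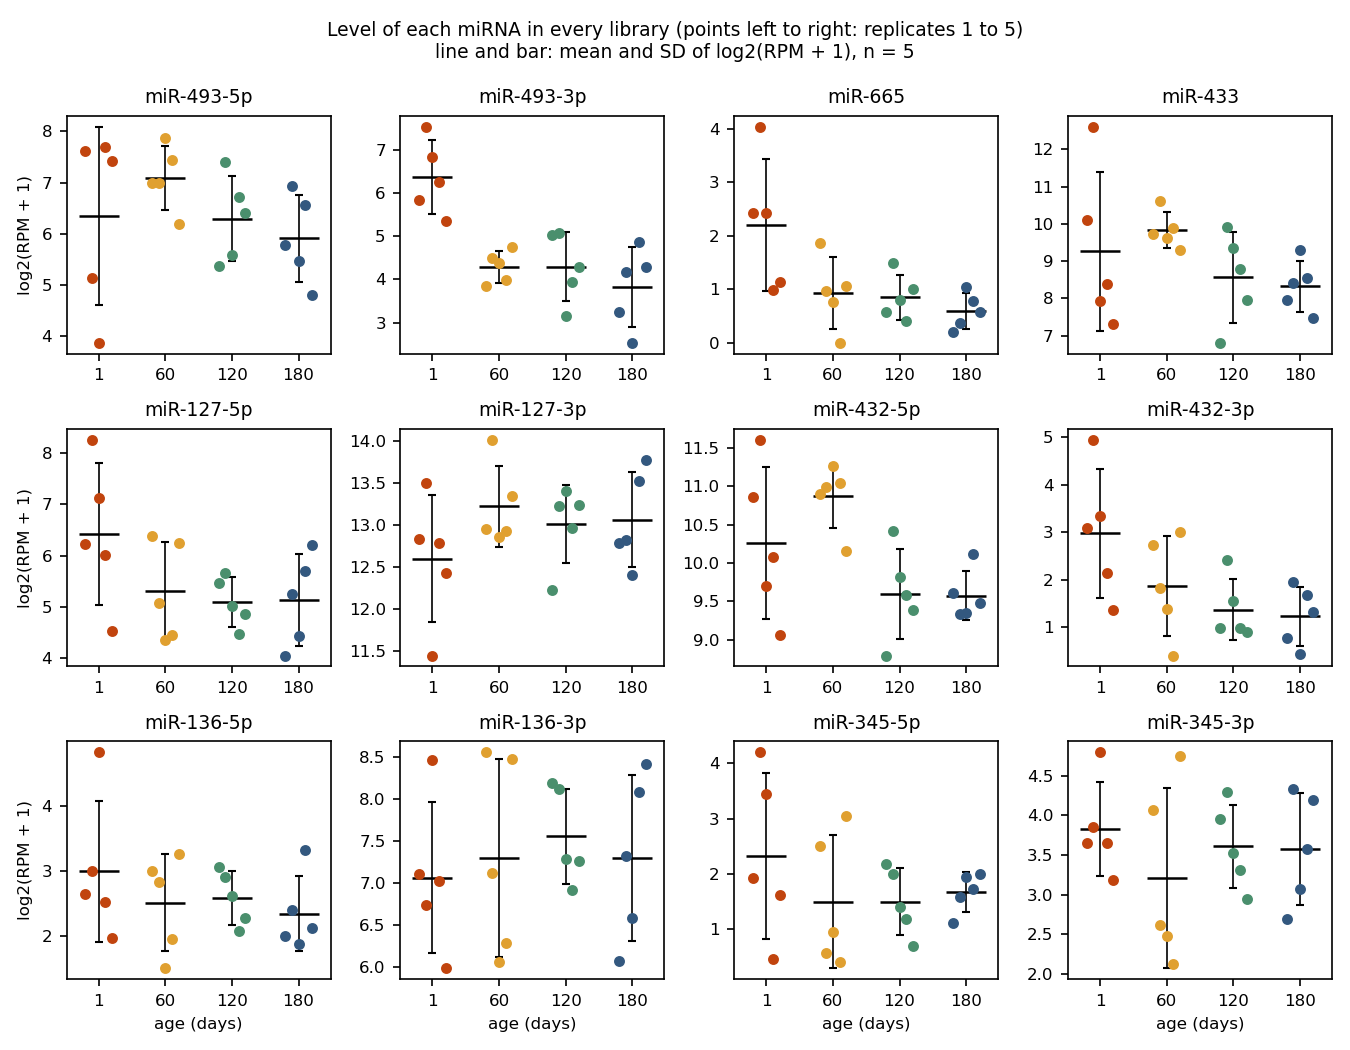
Level of each of the 12 miRNAs as log2(RPM + 1) (vertical axis) in every library by age in days (horizontal axis); points within an age are replicates 1 to 5 from left to right, the line is the mean and the bar the SD of 5 libraries. All 5 day 1 points of miR-493-3p lie above every later point, whereas the ages overlap for miR-127-3p.

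The first question was which of these miRNAs differed between newborn and later hypothalamus. miR-493-3p fell at all 3 later ages, and miR-665 was lower at day 180 by a margin that barely passed the test. The other 10 miRNAs did not pass at any age. Both falls had the direction of the multiciliated and choroid plexus rows, of which 6 of 7 were below 0 at each later age. Their median log2 fold changes were -1.05, -0.94 and -0.83 at days 60, 120 and 180. The mean of their summed level, though, was 4835 RPM at day 1 and 6708 RPM at day 60. Neuronal rows also had medians below 0 (-0.40, -0.015 and -0.39), as had the 3 tested erythroid rows (-0.60, -0.39 and -0.69). Astrocyte rows had medians above 0 (0.34, 1.01 and 0.67), as had oligodendrocyte and myelin rows (0.25, 0.72 and 0.96). Neuroendocrine and pituitary rows had medians of 0.023, 0.0059 and -0.57, with 0 of 5 above 0 at day 180. The part of these cells in the falls was not tested. By limma on log2(RPM + 1), with adjustment over all 414 tested miRNAs, 1 of 12 passed at day 60 against day 1, 1 of 12 at day 120 and 2 of 12 at day 180, each of them lower than on day 1. Over all tested miRNAs the share that passed was 3.86% at day 60, 3.38% at day 120 and 3.38% at day 180. Between the 3 later ages 0 of 12 passed, as did 0% of all 414 in each of the 3 comparisons. There the unadjusted p of limma was under 0.05 for 1 of 12 at day 120 against day 60, for 2 of 12 at day 180 against day 60 and for 0 of 12 at day 180 against day 120, and edgeR and DESeq2 called 0 as well. The F test over the 4 ages called 1 of 12 (miR-493-3p, adjusted p = 0.0134), against 1.93% of all.

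miR-493-3p comes from the hairpin that, of the 7 genes looked up here, is the first after DLK1. On day 1 its 5 libraries held 56.1, 185, 114, 75.5 and 39.8 RPM. On day 60 they held 13.4, 21.6, 19.8, 14.9 and 26.1 RPM. Day 120 libraries held 31.5, 32.8, 7.93, 14.4 and 18.6 RPM, and day 180 libraries 8.46, 17.0, 4.78, 28.0 and 18.4 RPM. Every day 1 library was above all 15 later libraries, and the 3 later ages overlapped each other. The lowest of the 20 values, in replicate 3 of day 180, rested on 27 reads, so none was near the floor.

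The log2 fold change of miR-493-3p was -2.07 ± 0.52 (SE) at day 60 against day 1, with a limma adjusted p of 0.0249. It was -2.07 ± 0.52 at day 120, with an adjusted p of 0.0225, and -2.55 ± 0.52 at day 180, with an adjusted p of 0.00355. The level was lower in 5 of 5 libraries at each later age than in any day 1 library, a separation in this direction that 2.42% of all tested miRNAs showed at day 60, 3.38% at day 120 and 2.9% at day 180. Between the later ages it did not pass: the log2 fold change was 0.0049 ± 0.52 at day 120 against day 60, and -0.48 ± 0.52 at day 180 against day 60 and at day 180 against day 120.

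The day 180 call of miR-493-3p was kept with each of the 20 libraries left out, with adjusted p between 0.00177 and 0.0175. The other calls rested on fewer libraries. Without replicate 2 of day 1, which held the highest value, the log2 fold change was -1.78 at day 60 with an adjusted p of 0.0710, and -1.77 at day 120 with an adjusted p of 0.0665. The day 60 call was also lost without replicate 3 of day 1 (adjusted p = 0.0674) and without replicate 2 or 4 of day 60 (0.0573 and 0.0753), and the day 120 call without replicate 3 or 4 of day 120 (0.101 and 0.0731). The F test no longer passed without replicate 2 or 3 of day 1 (adjusted p = 0.0772 and 0.0575). When only the ages compared entered the fit, the adjusted p was 0.126 at day 60, 0.0751 at day 120 and 0.0470 at day 180.

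miR-665, from the next of these hairpins, was the scarcest of the group. Its day 180 libraries held 0.143, 0.286, 1.06, 0.728 and 0.497 RPM, which is between 1 and 6 reads each. Those of day 1 held 4.36, 15.4, 4.35, 0.975 and 1.21 RPM. The day 180 values lay mostly below those of day 1, but the ages overlapped by 1 library each, and 2 of the day 180 libraries were at or under 3 reads. The mean was 5.26 ± 5.91 RPM at day 1, 1.08 ± 0.975 at day 60, 0.871 ± 0.580 at day 120 and 0.543 ± 0.364 at day 180 (SD, n = 5 each), with 1 day 60 library at 0. The log2 fold change was -1.27 ± 0.46 at day 60 against day 1 (limma adjusted p = 0.0892), -1.35 ± 0.46 at day 120 (0.0939) and -1.61 ± 0.46 at day 180 (0.0498). The day 180 call held in 4 of the 20 fits with a library left out, whose adjusted p ran from 0.0132 to 0.165, the highest without replicate 2 of day 1. It also held in 6 of 11 other alternatives.

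miR-493-5p, the opposite arm of miR-493-3p, did not pass the test at any age. On day 1 its libraries held 195, 34.1, 13.6, 205.9 and 170 RPM, so that 3 were among the highest of the series and 2 among the lowest. Its means were 123.8 ± 92.4 RPM at day 1, 145.7 ± 60.0 at day 60, 88.8 ± 51.8 at day 120 and 67.9 ± 38.7 at day 180 (SD, n = 5 each). The log2 fold change against day 1 was 0.75 ± 0.65 at day 60, -0.05 ± 0.65 at day 120 and -0.43 ± 0.65 at day 180, with limma adjusted p from 0.573 to 0.984. The small value at day 120 changed sign with the scaling and with several single libraries.

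**Figure D2:**
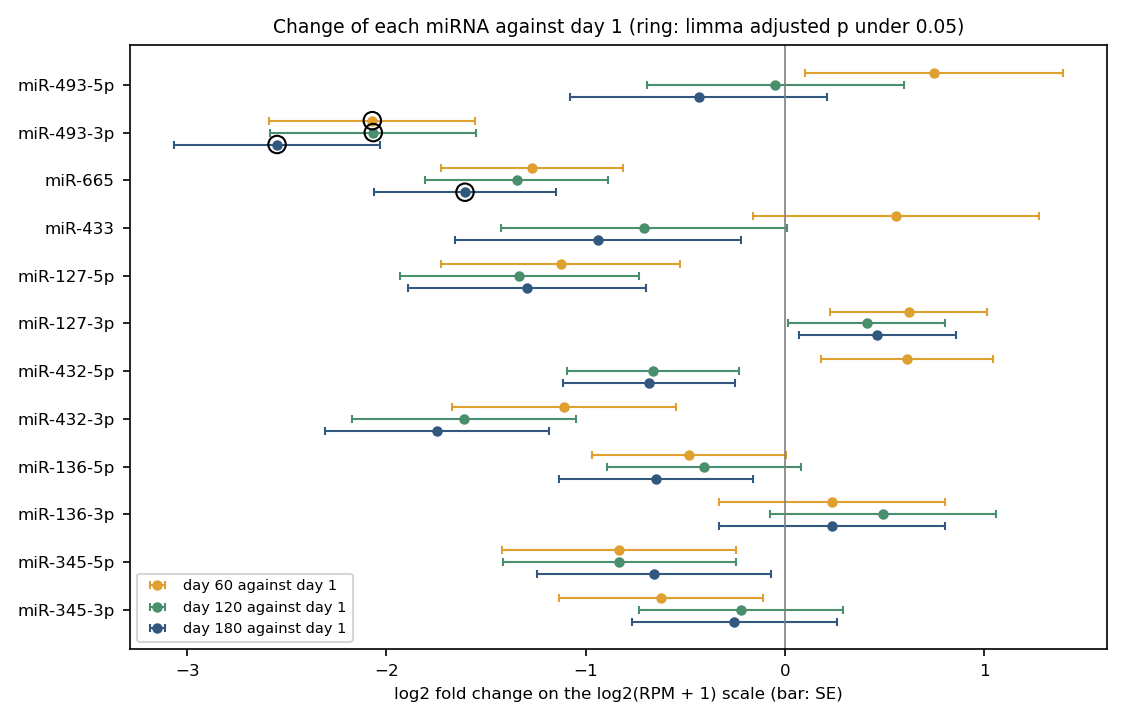
Log2 fold change (horizontal axis, on the log2(RPM + 1) scale) of each miRNA at days 60, 120 and 180 against day 1, with bars of 1 SE and a ring where the limma adjusted p was under 0.05. Only miR-493-3p has a ring at all 3 ages and miR-665 at day 180, and miR-127-3p and miR-136-3p are to the right of 0 throughout.

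The hairpins within the span of RTL1 held the abundant miRNAs of the group, and none of their 7 rows passed the test. miR-127-3p held 7341, 11622, 2798, 7101 and 5547 RPM on day 1, and 7967, 16642, 7436, 7840 and 10466 RPM on day 60. It held 4793, 9596, 10883, 8007 and 9690 RPM on day 120, and 7077, 7271, 5456, 11815 and 14087 RPM on day 180. Its ages overlapped throughout, and its lowest value was that of replicate 3 of day 1. The log2 fold change against day 1 was 0.62 ± 0.39 at day 60, 0.41 ± 0.39 at day 120 and 0.46 ± 0.39 at day 180 (limma adjusted p 0.390, 0.619 and 0.514).

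miR-432-5p and miR-433 had another order of ages. miR-432-5p held 1906, 2034, 2455, 2113 and 1139 RPM on day 60. It held 443, 1360, 899, 764 and 670 RPM on day 120, and 781, 644, 648, 1109 and 712 RPM on day 180. All 5 day 180 values lay below all 5 of day 60, while day 120 overlapped day 60 by 1 library and the day 1 values, from 533 to 3116 RPM, spanned both. At day 180 against day 60 the log2 fold change was -1.29 ± 0.43 with an unadjusted p of 0.00593, but the limma adjusted p over all miRNAs was 0.845.

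miR-433 held 246, 337.9, 626, 375.3 and 176 RPM on day 180, against 843, 1555, 785, 949 and 629 RPM on day 60. Again the day 180 values all lay below those of day 60, though the highest of day 180 and the lowest of day 60 were within 3 RPM of each other. The log2 fold change was -1.49 ± 0.72 (limma adjusted p = 0.860). These 2 rows were the members that did not overlap between day 180 and day 60, where 1.93% of all tested miRNAs did not overlap. On day 1 miR-433 was the most uneven member, with 1099, 6239, 245, 335 and 158 RPM. Its change at day 60 against day 1 had a log2 value of 0.56 ± 0.72 by limma, -0.11 by edgeR with TMM, -0.76 by edgeR on library size alone and -0.052 by DESeq2, none of them called.

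The scarcer arms of these hairpins pointed the same way as miR-665 without passing in the fit reported here. miR-127-5p averaged 121 ± 111 RPM at day 1, 46.1 ± 30.1 at day 60, 34.7 ± 11.6 at day 120 and 39.6 ± 23.5 at day 180 (SD, n = 5 each). Its log2 fold change against day 1 was -1.13 ± 0.60 at day 60, -1.33 ± 0.60 at day 120 and -1.29 ± 0.60 at day 180, with limma adjusted p of 0.287, 0.194 and 0.215. miR-432-3p averaged 10.3 ± 11.4, 3.42 ± 2.80, 1.82 ± 1.47 and 1.52 ± 1.03 RPM at days 1, 60, 120 and 180 (SD, n = 5 each), with log2 fold changes of -1.11 ± 0.56, -1.61 ± 0.56 and -1.74 ± 0.56 against day 1 (limma adjusted p 0.258, 0.107 and 0.0875). For both, the ages overlapped, and replicate 2 of day 1 held the highest value of the 20. In alternatives other than left-out libraries, miR-432-3p passed in 4 of 11 at day 120 and in 3 of 11 at day 180. miR-127-5p passed by DESeq2 at day 120 (adjusted p = 0.0236).

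Neither arm of miR-136 passed the test, and miR-136-3p showed no order with age. miR-136-3p ranged over 62.4 to 350 RPM on day 1, 65.7 to 374.9 on day 60, 120 to 291 on day 120 and 66.5 to 341 on day 180, a spread within each age larger than any difference between ages. Its log2 fold changes against day 1 were between 0.24 and 0.49, with limma adjusted p from 0.690 to 0.858, and at days 60 and 180 their sign changed when single libraries were left out. miR-136-5p averaged 9.42 ± 10.05, 5.27 ± 2.83, 5.19 ± 1.73 and 4.46 ± 2.60 RPM at days 1, 60, 120 and 180 (SD, n = 5 each), and its log2 fold changes against day 1 were between -0.65 and -0.41 (limma adjusted p from 0.462 to 0.705).

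miR-345, outside the interval, did not pass the test in either arm. miR-345-3p averaged 14.3 ± 7.24, 10.9 ± 9.70, 11.9 ± 4.73 and 12.1 ± 6.01 RPM at days 1, 60, 120 and 180 (SD, n = 5 each). miR-345-5p averaged 6.51 ± 7.12, 2.74 ± 3.12, 2.02 ± 1.22 and 2.25 ± 0.734 RPM. The log2 fold changes of the 2 arms against day 1 ran from -0.83 to -0.22, with limma adjusted p from 0.437 to 0.868, and under quantile scaling those of miR-345-3p at days 120 and 180 were above 0.

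Over the 12 miRNAs the median log2 fold change was -0.55 at day 60 against day 1, -0.68 at day 120 and -0.67 at day 180. Over all 414 tested it was -0.04, -0.12 and -0.25. Quantile scaling moved the day 180 median of all miRNAs to 0.01 and that of the 12 to -0.35, and under it miR-493-3p had a log2 fold change of -2.22 (limma adjusted p = 0.00528). Against day 1, 7 of the 12 were below 0 at day 60, 10 at day 120 and 10 at day 180. The median over all 414 was below 0 at each of these ages too, and several of the 12 are arms of the same hairpin. The 3 comparisons share the day 1 libraries.

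The distal run, the other miRNA group of the region, was examined from a list of names from miR-379 to miR-656, of which 53 had rows and 46 were tested. At day 60 against day 1, 0 of 46 passed the limma test, at day 120 1 and at day 180 3, all lower than on day 1: miR-412-3p at days 120 and 180, and miR-412-5p and miR-496-3p at day 180. miR-412-5p, the abundant one of these, averaged 224 ± 120 RPM on day 180 and 835 ± 548 RPM on day 1 (SD, n = 5 each; log2 fold change -1.77 ± 0.48, limma adjusted p = 0.0395). The 4 most abundant distal rows were miR-323a-3p at 3498 RPM, miR-409-3p at 2735 RPM, miR-379-5p at 2397 RPM and miR-382-5p at 1562 RPM over the 20 libraries. None of these 4 passed, and each averaged less than miR-127-3p. The median log2 fold change of the distal rows was 0.19 at day 60 against day 1, -0.26 at day 120 and -0.53 at day 180, beside the medians of the 12 given above. Whether the 2 groups differ in their changes was not tested.

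The second question was whether the arms of a hairpin kept their balance with age. The share of miR-493-5p in the reads of both miR-493 arms was 77.7%, 15.6%, 10.7%, 73.2% and 81.0% in the 5 day 1 libraries. The 95% Wilson intervals, which cover counting error only, were 13.3% to 18.1% for replicate 2 and 8.82% to 12.8% for replicate 3. In the 15 later libraries the share ran from 73.3% to 92.2% on day 60, from 56.0% to 87.9% on day 120 and from 59.5% to 90.1% on day 180. Thus miR-493-5p was the majority arm in 18 of 20 libraries, and miR-493-3p in replicates 2 and 3 of day 1. In these 2 libraries miR-493-3p was at its highest of the series and miR-493-5p at 2 of its 3 lowest values.

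**Figure D3:**
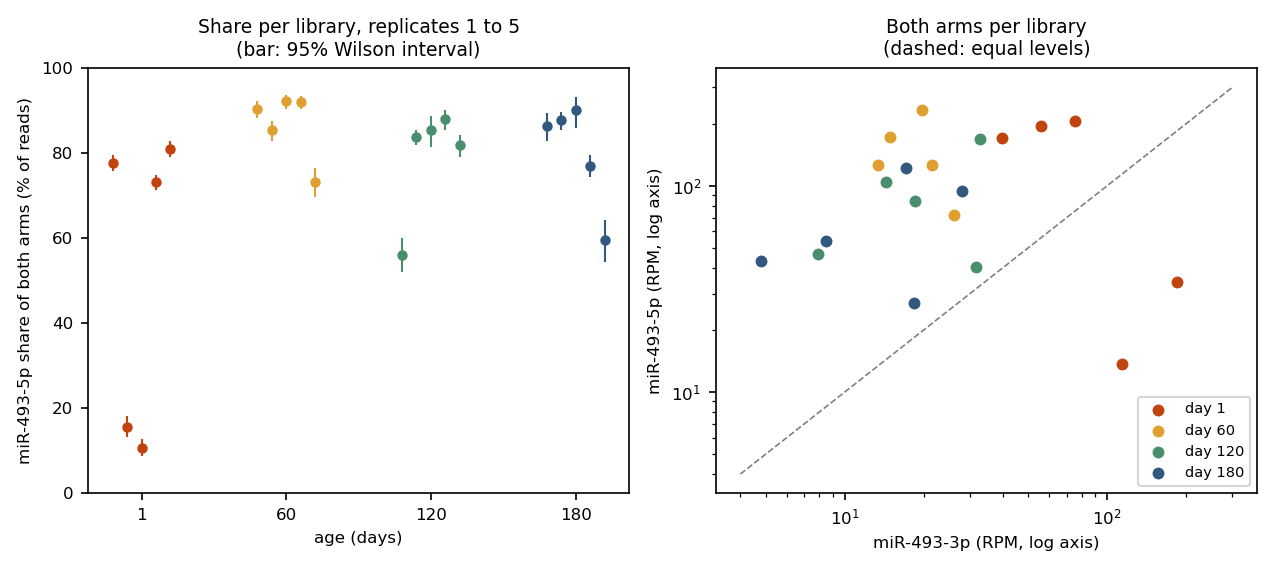
Left, share of miR-493-5p in the reads of both miR-493 arms (percent) by age in days, with 95% Wilson intervals, replicates 1 to 5 from left to right. Right, level of miR-493-5p against miR-493-3p (RPM, both axes log) in each library, where replicates 2 and 3 of day 1 lie alone below the line of equal levels.

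The log2 ratio of miR-493-5p to miR-493-3p was higher than on day 1 by 2.82 at day 60, 2.02 at day 120 and 2.11 at day 180. The exact two-sided permutation test over all splits of 5 against 5 libraries gave p of 0.0317, 0.159 and 0.151, and the values adjusted over 36 ratio tests were 0.0952, 0.286 and 0.286. The difference therefore did not pass after adjustment at any age. The log2 ratios of the day 1 libraries had an SD of 2.46. The reads of both arms together came to 217.8 ± 57.8 RPM at day 1, 165 ± 58.0 at day 60, 110 ± 57.0 at day 120 and 83.2 ± 43.7 at day 180 (SD, n = 5 each). The lowest day 1 sum, 127.6 RPM, was that of replicate 3, and replicate 2 had 218.8 RPM.

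For miR-127 the 5p arm was the minor arm in every library. Its share was 1.91% ± 1.76 at day 1, 0.491% ± 0.359 at day 60, 0.450% ± 0.268 at day 120 and 0.412% ± 0.121 at day 180 (SD, n = 5 each). Replicates 2 and 3 of day 1 held 2.56% and 4.70%, and the other 3 day 1 libraries overlapped the later ages. The log2 ratio of miR-127-5p to miR-127-3p differed from day 1 by -1.75, -1.74 and -1.76 at days 60, 120 and 180, with exact permutation p of 0.0556, 0.0476 and 0.0317 and adjusted values of 0.143, 0.132 and 0.0952.

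The minor arms of miR-432, miR-136 and miR-345 were examined after their values had been seen. The share of miR-432-3p was 0.610% ± 0.378 at day 1, 0.222% ± 0.241 at day 60, 0.202% ± 0.0787 at day 120 and 0.199% ± 0.152 at day 180 (SD, n = 5 each). The share of miR-136-5p was 5.02% ± 1.60, 2.95% ± 0.960, 2.60% ± 0.344 and 2.77% ± 1.21 in the same order of ages. The share of miR-345-5p was 25.2% ± 19.6, 15.8% ± 6.95, 13.6% ± 3.98 and 17.3% ± 6.59. All 9 of their differences from day 1 were below 0 on the log2 scale, but 0 of 9 passed the exact permutation test after adjustment over the 9, with a lowest adjusted p of 0.0714 and 4 of 9 under 0.05 before adjustment.

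Ratios of abundant miRNAs within a library hardly depend on its scaling, so each member was also set against miR-127-3p. The log2 ratios were differences of log2(RPM + 1), so those of scarce members moved with the pseudocount. For miR-665 the difference from day 1 at day 180 was -2.07, and -3.06 to -1.20 with other pseudocounts. None of the 36 tests of these ratios and of the 2 arm ratios passed: the exact permutation test gave 13 of 36 under 0.05 before adjustment, and the lowest adjusted p was 0.0816. The log2 ratio of miR-493-3p to miR-127-3p differed from day 1 by -2.69 at day 60, -2.48 at day 120 and -3.01 at day 180, lower in 5 of 5 libraries each time. Each had a p of 0.00794, the smallest that 5 against 5 libraries allow, and an adjusted p of 0.0816. Relative to miR-127-3p, miR-432-5p had differences of -0.01, -1.07 and -1.15 from day 1 at days 60, 120 and 180 (adjusted p 0.984, 0.0816 and 0.0857).

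The third question was which members varied together between goats of one age. Of 66 pairs, 16 had a Pearson r of log2(RPM + 1) that passed after each age's mean was subtracted (100000 permutations within ages, adjusted over the 66). The share of pairs that pass among all tested miRNAs was not computed. The 16 of 66 can therefore not be read as particular to these members, and pairs with miR-345, outside the interval, are among them. These 16 r were between 0.61 and 0.88, and between 0.55 and 0.88 without the 2 libraries farthest from the median of the first miRNA of the pair. Without replicate 2 of day 1 the lowest of them was 0.49. All 16 also passed by Spearman's rho, by which 21 pairs passed, and 24 passed by Pearson's r without subtraction of the age means.

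Of the 16 passing pairs, 15 fell within a set of 8 members. Among miR-493-3p, miR-665, miR-127-5p, miR-432-3p, both arms of miR-136 and both arms of miR-345, a set of 8 named after the values had been seen, 15 of 28 pairs passed. The highest r was 0.88, between miR-136-3p and miR-345-3p, which come from hairpins on either side of DLK1. miR-127-5p and miR-432-3p, minor arms of hairpins that follow each other in the order given above, had an r of 0.87. miR-432-3p and miR-665 had one of 0.82.

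The other 4 members gave 1 passing pair. miR-432-5p and miR-433 varied together (r = 0.86, rho = 0.74, adjusted permutation p = 0.0033), and of their 16 pairs with these 8 miRNAs 0 passed, with r from -0.15 to 0.69. miR-127-3p passed with none of the other 11 members, with r from -0.15 to 0.54 and a lowest adjusted p of 0.0998. miR-493-5p had negative r with each of the 8, from -0.65 to -0.22, none of which passed. Of miRNAs from the same hairpin, miR-136-5p and miR-136-3p had an r of 0.81 and miR-345-5p and miR-345-3p one of 0.72, whereas miR-127-5p and miR-127-3p had 0.31, miR-432-5p and miR-432-3p 0.50, and miR-493-5p and miR-493-3p -0.22.

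**Figure D4:**
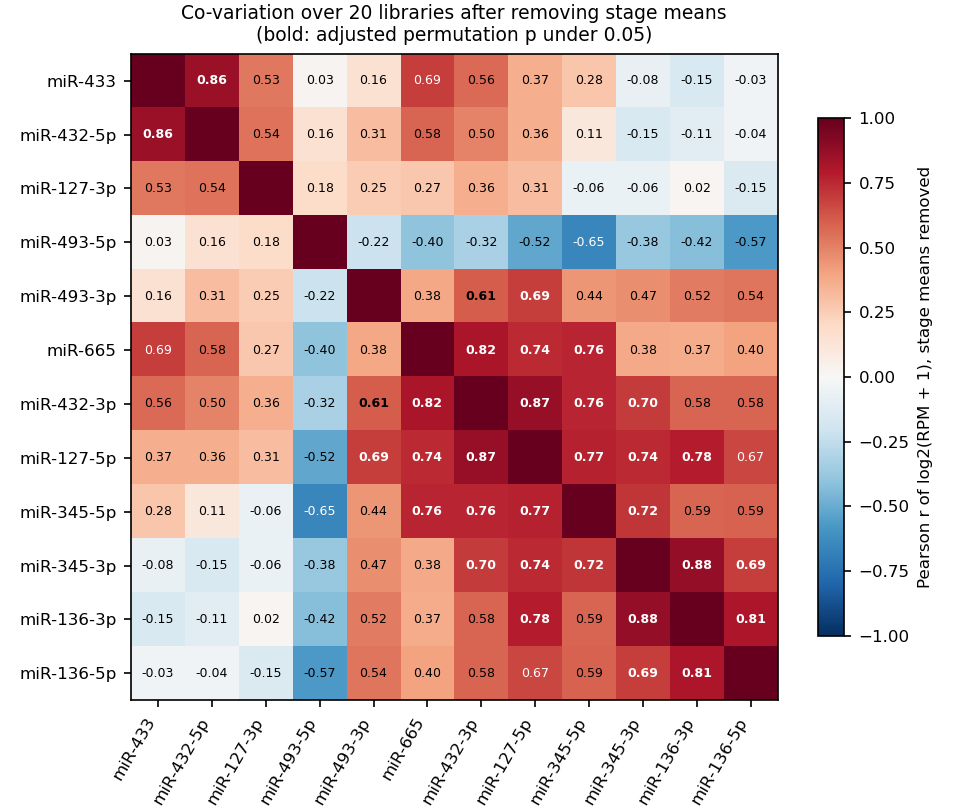
Pearson r of log2(RPM + 1) between each pair of the 12 miRNAs over 20 libraries after subtraction of the age means; colour runs from -1 (blue) to 1 (red) and bold values had an adjusted permutation p under 0.05. Of the 16 bold pairs, 15 are among the 28 pairs of 8 miRNAs, a set named after the values had been seen. The other is miR-433 with miR-432-5p.

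The levels compared share the total and the depth of their library. Under median-of-ratios scaling 11 pairs passed, 8 with positive and 3 with negative r. The number was 15 to 23 with a library left out, and 23 without replicate 2 of day 1.

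Outside the group, the known miRNAs whose levels were most like those of miR-127-3p within ages were miR-323b (rho = 0.68), miR-485-5p (0.67) and miR-105b-5p (0.66), of 263 known miRNAs that averaged at least 10 RPM. The first 2 belong to the distal run. For miR-493-3p they were miR-412-5p (rho = 0.74) and miR-411a-5p (0.70), again of the distal run, and miR-153 (0.68). These are descriptions over 20 libraries, ranked by Spearman's rho after subtraction of the age means. The median rho of the distal rows was 0.42 with miR-127-3p and 0.25 with miR-493-3p, against 0.15 and 0.09 over all 263. Without replicate 2 of day 1 the rho of miR-105b-5p with miR-127-3p was 0.46, and the other 5 were between 0.55 and 0.74.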

How the data were processed

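Trizol RNA and NEBNext small RNA libraries were used, per the labels' protocols. Bowtie is named, without a version, in the submitters' processing notes. For the genome build, the miRNA catalogue and the read counter the sources used here give nothing. The values of 683 miRNAs were deposited by the authors as 1 table, in RPM. Its columns are named TPM, but the values are whole multiples of the value of 1 read in each column and were not divided by length. Dividing by that step gave whole reads for 100% of values below 1000 reads, within 0.1 read, and the depth. Intervals and floors cover counting error only.

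The members and lists were chosen with earlier results of these data known. Levels were tested with two-sided moderated tests in limma 3.58.1 (R 4.3.3, mean-variance trend) of log2(RPM + 1), in 1 fit of 20 libraries with 4 age means, with Benjamini-Hochberg adjustment over 414 miRNAs at 0.05. This scale understates changes of scarce miRNAs. Arm and member ratios, as differences of log2(RPM + 1), were tested with exact permutation tests, and pairs with 100000 permutations (scipy 1.17.1). edgeR 4.0.16 (quasi-likelihood) and DESeq2 1.42.0 were run on the recovered reads as alternatives, with other pseudocounts (0.1 and 5), filters and scalings and with each library left out. All members are named. Beside them, the rule named the 3 known miRNAs most like miR-127-3p and miR-493-3p, the 4 most abundant distal miRNAs and any distal miRNA that passed. The tests were tried on simulated reads. No 2 replicates agreed within sampling noise.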

Additional observations from a re-analysis of the deposited data

Results flagged for a closer look

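In each age the highest or lowest of the 5 libraries was compared with the rest by Dixon's test (critical value 0.71). Of 68 such groups of values 8 were marked, or 11.8%. The rate of about 1 in 20 of this test holds for independent groups of normally distributed values. The values here were RPM and percentages, not logs, and the groups share libraries and hairpins. The share marked is therefore not to be set against that rate. Of the 8, 6 were day 1 groups, and each was high in replicate 2 or replicate 3.

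Replicate 2 of day 1 held 6239 RPM of miR-433, against 158 to 1099 RPM in the other 4 libraries. It also held 29.9 RPM of miR-432-3p, against 1.57 to 9.12 RPM, and 15.4 RPM of miR-665, against 0.975 to 4.36 RPM. This was the library of lowest depth that stood apart over all miRNAs, and the part of depth in these values was not tested.

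Replicate 3 of day 1 held 350 RPM of miR-136-3p, against 62.4 to 136.7 RPM in the other 4. It held 27.2 RPM of miR-136-5p, against 2.90 to 6.97 RPM, and 26.8 RPM of miR-345-3p, against 8.09 to 13.4 RPM. The same library held the lowest miR-127-3p level of the 20.

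Replicate 4 of day 180 held 8.98 RPM of miR-136-5p, against 2.65 to 4.30 RPM in the other 4. Replicate 1 of day 120 had a miR-493-5p share of 56.0% of both arms, against 81.9% to 87.9%.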

How the results depend on the processing

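The day 180 fall of miR-493-3p passed in all 12 alternatives other than left-out libraries, with log2 fold changes from -2.65 to -2.17. Those at days 60 and 120 passed in 11 of 12 each, all but the fit of only 2 ages. The number of members called at day 60 against day 1 was 1, and 2 under median-of-ratios scaling and by DESeq2 and 0 with only the 2 ages. At day 120 it was 1, and 3 under median-of-ratios scaling and by edgeR with TMM, 2 under quantile scaling, 4 by DESeq2 and 0 with only the 2 ages. At day 180 it was 2, and 3 under median-of-ratios scaling, by edgeR on library size alone and by DESeq2, and 1 with a pseudocount of 0.1 or 5, with no filter, with a filter at 10 RPM, with no variance trend and with only the 2 ages. For the F test it was 1, and 2 under median-of-ratios scaling and by edgeR with TMM, 3 by edgeR on library size alone and 4 by DESeq2. Those 4 were miR-493-3p, miR-665, miR-432-3p and miR-432-5p. Against day 1, each call under another scaling or tool was lower than on day 1. With a library left out the numbers were 0 to 2 at day 60, 0 to 3 at day 120, 1 to 3 at day 180 and 0 to 2 for the F test. The number of ratios called was 0, and 0 to 6 with a library left out (6 without replicate 5 of day 1). The causes were not tested.

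Over all miRNAs the number called in the alternatives other than left-out libraries ran from 4 to 86 at day 60 (16 as reported), 4 to 74 at day 120 (14), 5 to 61 at day 180 (14) and 6 to 90 for the F test (8). With a library left out it ran from 2 to 43, 7 to 29, 5 to 31 and 5 to 16. It was 0 between later ages throughout. The number of members called under an alternative is therefore not to be set beside the share of all miRNAs given above.

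No value that changed direction had passed the test. Log2 fold changes of miR-345-3p under quantile scaling were 0.23 at day 120 and 0.31 at day 180, and that of miR-493-5p at day 120 was 0.068. miR-433 at day 60 had -0.11, -0.76 and -0.052 by edgeR with TMM, edgeR on library size alone and DESeq2. With a library left out, miR-136-3p ranged from -0.078 to 0.58 at day 60 and from -0.045 to 0.58 at day 180, miR-136-5p from -0.66 to 0.052 at day 120, miR-345-3p from -0.39 to 0.022 at day 120, miR-433 from -1.20 to 0.13 at day 120, miR-493-5p from -0.67 to 0.29 at day 120, and the log2 ratio of miR-432-5p to miR-127-3p from -0.27 to 0.20 at day 60.

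Replicate numbers do not pair the samples: same-numbered libraries of different ages correlated between -0.71 and 0.54 in their deviations, and 4 of 20 libraries correlated best with their own number. With a replicate block the members called were 1, 1 and 2 against day 1 and 0 between later ages. Under that block 30 pairs of members passed, 27 of them with a positive r, against 16. Permutation within ages is only approximate once a block has been removed, so these numbers are not to be compared. Depth limits the scarce members: miR-665 was at or under 3 reads, 0.360 to 0.747 RPM, in 5 libraries and miR-345-5p in 3.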
